A study of Mus musculus with 4 samples.

Results

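The replication genes described here are 49 genes that a proliferating cell needs to copy its DNA in S phase, chosen by name and present once in every table, out of 46983 gene IDs. They comprise the origin recognition complex, the licensing factors, the MCM2-7 helicase, the firing factors, the replicative polymerases, the sliding clamp with its loader, the single-strand binding protein RPA, the Okazaki fragment enzymes, the suppliers of deoxynucleotides and the activating E2F transcription factors. They were measured by bulk RNA-seq in 4 libraries of dissected mouse larynx at E10.5 (32 to 35 somites), each a pool of 3 larynxes. In 2 libraries (*Shh*-/- pools 1 and 2) the embryos carried the germline *Shh* null allele Shhtm1amc, and in the other 2 (WT pools 4 and 6) they were wild-type Swiss Webster, the background on which the null allele is kept. The study gives the mutants as *Shh*-/-, whereas the genotype label of the same pools reads Shh+/-, and the name *Shh*-/- is used here (mutant pools). Both groups were untreated whole tissue that mixed epithelium with mesenchyme, neurons, muscle, vessels and blood.

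Replication begins when the origin recognition complex, with CDC6 and CDT1, loads pairs of MCM2-7 rings on DNA in G1. Kinases then recruit CDC45 and GINS to turn each ring into an active helicase, behind which polymerase alpha-primase starts every strand and polymerases epsilon and delta extend it. Many of these genes are transcribed in late G1 by E2F proteins once the retinoblastoma family releases them, and Hedgehog signalling is known to drive cell-cycle entry in several embryonic tissues.

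No replication gene differed between *Shh*-/- and WT larynxes at an adjusted p of 0.05, and most differences were small. Levels are given as TPM, a length-normalised share of the transcripts of each library, and differences as the log2 fold change of TPM + 1, *Shh*-/- minus WT, with its standard error from limma (n = 2 pools per group). All 49 genes passed the filter of a mean of at least 1 TPM, and 0 of 49 passed the threshold in either direction, beside 0.725% of the 16972 genes tested, 0.56% higher and 0.165% lower. The lowest adjusted p of the 49 was 0.0964, for *Mcm7*. At an unadjusted p under 0.05, 11 of 49 were lower and 2 were higher, beside 7.22% and 17.5% of all tested genes. The labels do not say that the pools came from separate litters, so these p-values measure only the spread between these pools. In limma the spread of each gene is moderated towards that of genes of similar level. An exact permutation test of 2 pools against 2 cannot give a two-sided p below 0.333.

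The 95% intervals describe this moderated spread between these pools and not the choice of processing. A correction of the libraries for GC content and length moved some genes outside them. *Mcm7*, with an interval from -0.68 to -0.22, moved to -0.72, and *Rpa3* (-0.37 to 0.18) to 0.33. For 45 of the 49 genes the log2 fold change lay within 0.5 of 0, beside 76.7% of all tested genes. For 45 its 95% interval lay inside 1 on either side of 0, beside 70.9% of all tested genes. The 4 genes with wider intervals were *Orc4*, *Pola1*, *Pold3* and *Fen1*. An interval inside 0.5 on either side was reached by 20 genes. The 49 genes were also well measured, with a median level of 74.9 TPM against 16.7 TPM for all tested genes and a median difference between the pools of 1 group of 0.09 (*Shh*-/-) and 0.11 (WT) on the log2 scale.

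**Figure D1:**
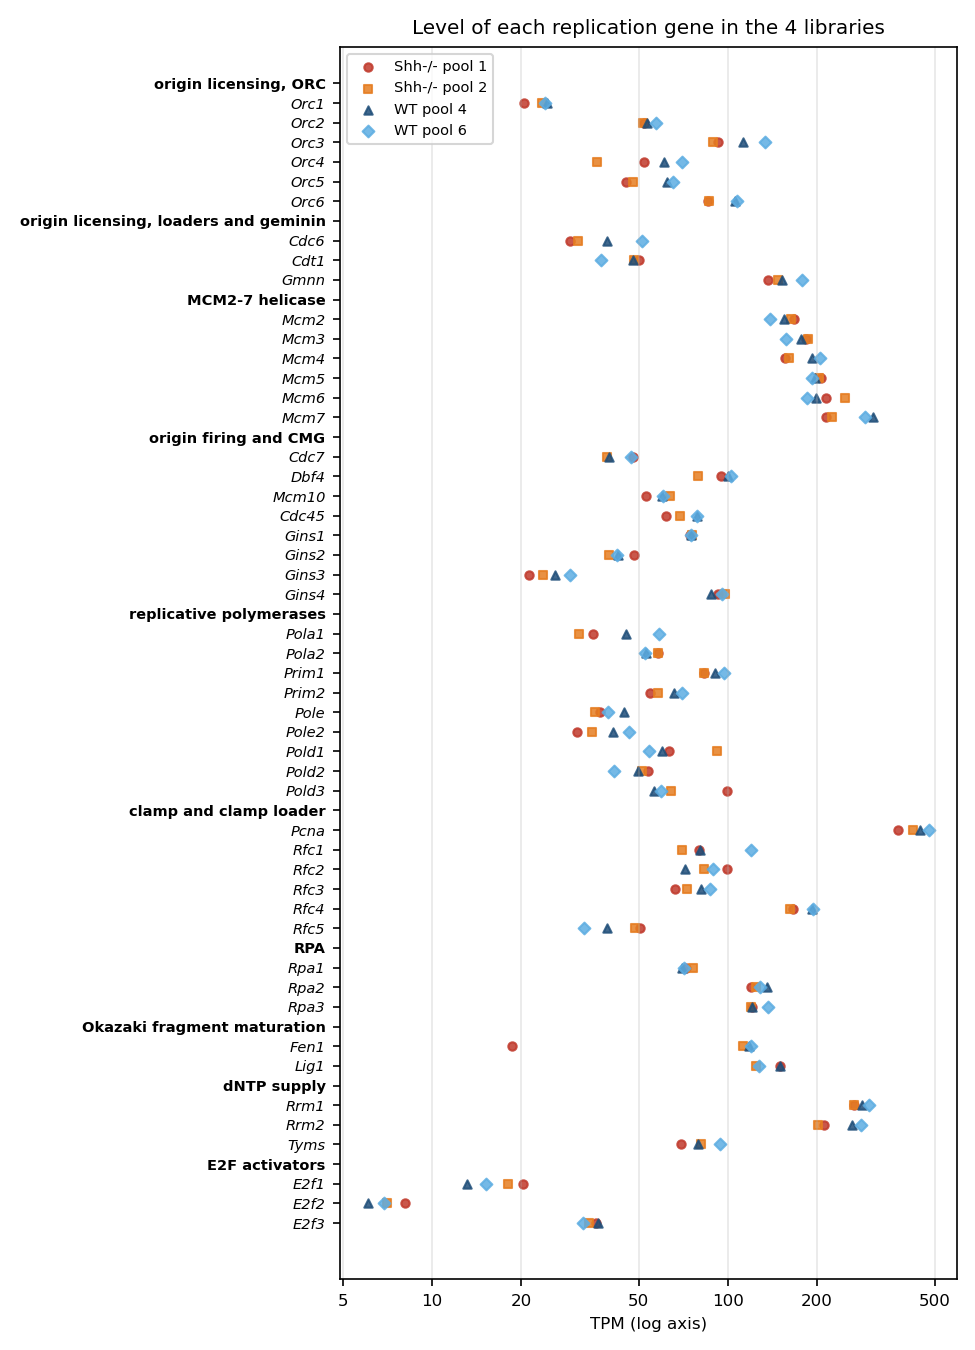
Level of each of the 49 replication genes (TPM, log axis) in the 2 *Shh*-/- pools (circles and squares) and the 2 WT pools (triangles and diamonds), ordered by role. The 4 libraries lie close together for most genes, and *Fen1* in *Shh*-/- pool 1, at 18.7 TPM, stands apart.

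Small as most differences were, the genes leaned lower. The log2 fold change was below 0 for 31 of 49 genes (63.3%) and above 0 for 18, whereas 41.7% of all tested genes were lower. Its median was -0.12 over the 49 genes and 0.08 over all tested genes. Each mutant pool lay below each WT pool for 26 of the 49, beside 22.7% of all tested genes, and above each for 13, beside 38%, while the pools overlapped for 10. Among the 11265 genes within the same range of levels, 40.9% were lower and the median was 0.09. The summed TPM of the 49 genes took 0.465 and 0.477% of the transcripts in mutant pools and 0.509 and 0.525% in WT pools. TPM is a share, so it also moves with the other transcripts of a library. In bulk tissue, such a shift, fewer cycling cells and less RNA per cell cannot be told apart.

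**Figure D2:**
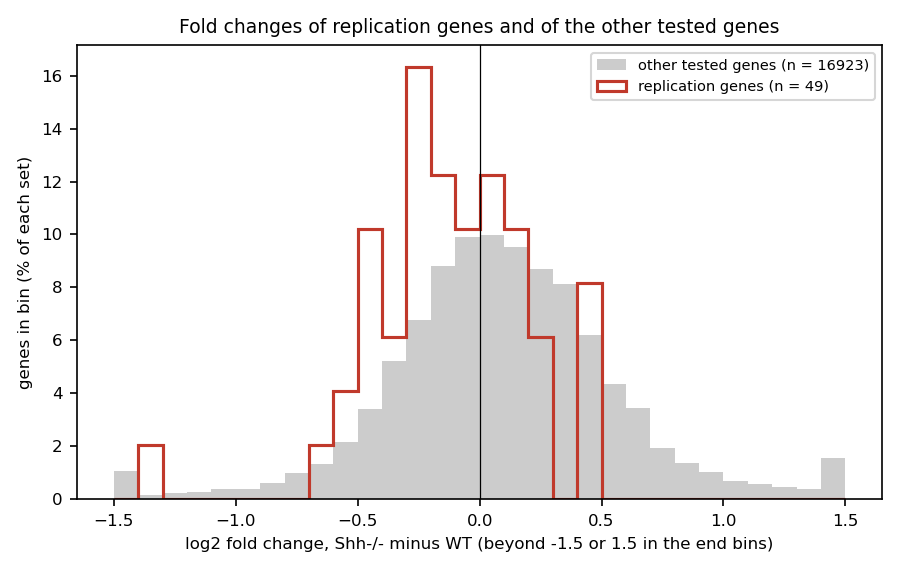
Log2 fold changes (*Shh*-/- minus WT) of the 49 replication genes (red outline) and of the other 16923 tested genes (grey), each as a percentage of its set per bin of 0.1. The median of the replication genes, -0.12, is below that of all tested genes, 0.08, and 1 replication gene, *Fen1*, lies below -1.

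The origin recognition complex marks the sites where replication can start. Each of its 6 subunits was lower in each mutant pool than in each WT pool, beside 22.7% of all tested genes. The median difference of the 6 was -0.37 on the log2 scale. *Orc5* measured 45.3 and 47.6 TPM in mutant pools and 62.1 and 65.0 TPM in WT pools (-0.44 ± 0.10, adjusted p = 0.114). *Orc3* was at 92.6 and 89.2 TPM against 113 and 134 TPM (-0.43 ± 0.12, adjusted p = 0.138). *Orc6*, the least conserved subunit, was at 85.7 and 86.0 TPM against 106 and 107 TPM (-0.31 ± 0.09, adjusted p = 0.150). The groups did not overlap for any of these 3 genes, and correcting the libraries for GC content and length moved *Orc5* to -0.28, *Orc3* to -0.25 and *Orc6* to -0.21. *Orc4* had a larger difference and a wider spread, at 52.2 and 36.1 TPM against 60.8 and 70.1 TPM (-0.58 ± 0.20, adjusted p = 0.179), and was at -0.40 after that correction. *Orc1* and *Orc2* differed least, at -0.14 and -0.09, with both intervals spanning 0. *Orc2* shares 29.8% of its exon bases with *Nif3l1* on the other strand.

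The loading factors had values on both sides of WT. *Cdc6*, the ATPase that helps ORC to load the helicase, measured 29.2 and 31.1 TPM in mutant pools and 39.0 and 51.2 TPM in WT pools (-0.56 ± 0.16, adjusted p = 0.146). The GC and length correction moved *Cdc6* to -0.75. *Cdt1*, its partner in loading, was at 50.2 and 48.1 TPM against 47.6 and 37.2 TPM (0.22 ± 0.15, adjusted p = 0.404), a sign that turned (-0.16) once libraries were corrected for GC content and length. *Gmnn* encodes geminin, the inhibitor of CDT1, and was at 137 and 148 TPM against 152 and 177 TPM (-0.21 ± 0.12, adjusted p = 0.322). The groups did not overlap for any of the 3 genes, yet *Cdt1* lay above WT by less than the difference between the WT pools themselves. Without overlap, 22.7% of all tested genes were below WT and 38% above it. The ratio of *Cdt1* to *Gmnn* TPM was 0.366 and 0.326 in mutant pools and 0.313 and 0.210 in WT pools.

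The 6 subunits of the MCM2-7 helicase, the ring that unwinds DNA, had values on both sides of WT. At an unadjusted p under 0.05, 2 were lower and 0 higher, beside 7.22% and 17.5% of all tested genes. The summed levels of the 6 subunits overlapped between groups (1142 and 1186 TPM in mutant pools, 1229 and 1170 TPM in WT pools). *Mcm7* measured 214 and 225 TPM in mutant pools and 310 and 291 TPM in WT pools (-0.45 ± 0.09, adjusted p = 0.0964). *Mcm4* was at 155 and 161 TPM against 192 and 205 TPM (-0.33 ± 0.09, adjusted p = 0.140). Both were lower in each mutant pool, with no overlap. Without overlap, 22.7% of all tested genes were below WT and 38% above it. *Mcm6* was at 214 and 248 TPM against 198 and 185 TPM (0.26 ± 0.11, adjusted p = 0.228), and at 0.13 after the GC and length correction, which moved *Mcm7* to -0.72. *Mcm2* (0.17), *Mcm3* (0.15) and *Mcm5* (0.07) were also above WT in both pools, by amounts whose intervals spanned 0 and whose sign turned under the GC and length correction (-0.06, -0.11 and -0.17), for *Mcm5* under median centring also (-0.06). Of the exon bases of *Mcm7*, 7.25% lie opposite *Ap4m1* and 1.45% opposite *Cops6*.

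This ring is built from 1 copy of each subunit in every hexamer. The highest subunit exceeded the lowest 1.38-fold and 1.54-fold in mutant pools and 2.0-fold and 2.1-fold in WT pools. *Mcm6* over *Mcm7* was 0.999 and 1.10 against 0.641 and 0.635. *Mcm2* over *Mcm4* was 1.08 and 1.01 against 0.805 and 0.678. Neither ratio overlapped between groups, and both pairs were picked after their values were seen.

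**Figure D3:**
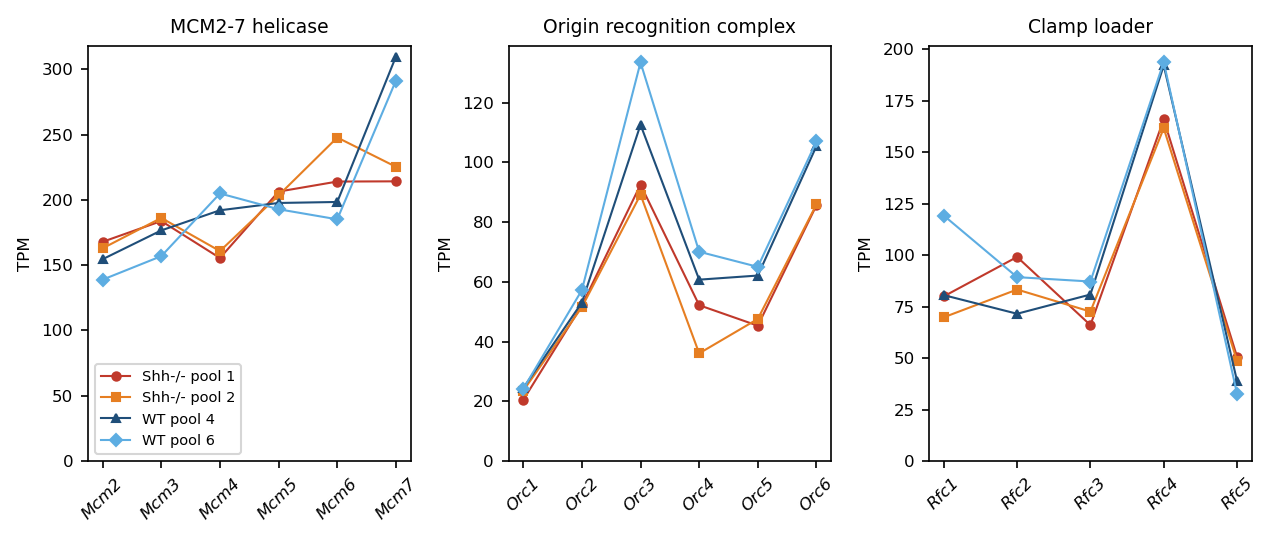
TPM of each subunit of the MCM2-7 helicase, the origin recognition complex and the clamp loader in the 4 libraries, with lines joining the subunits of 1 library. *Mcm7* and *Mcm4* lie lower and *Mcm6* higher in both *Shh*-/- pools, all 6 *Orc* genes lie lower, and *Rfc5* lies higher while *Rfc4* lies lower.

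The promoters of these genes are known for E2F sites, and the sequence of the start region was read for the 41 of 49 genes with an entry (RefSeq, GRCm38.p6, 250 bases before to 50 after each start). *Gins1*, *Gins2*, *Gins4*, *Gmnn*, *Mcm4*, *Pole*, *Prim2* and *Rfc2* had no entry. The words searched on both strands were TTTCCCGC, TTTCGCGC, TTTGCCGC and TTTGGCGC, forms of the E2F site, and matches on opposite strands may overlap. At least 1 was present in 17 of 41 genes (41.5%), against 2.60% of all 27025 genes with an entry and 4.72% of tested genes. The CCAAT box was present in 61.0% of the 41 genes, 41.1% of all genes and 43.0% of tested genes. TTTGAA, the core of the element that times mitotic genes, was present in 22.0%, 20.2% and 13.9%. The following 5 windows, the only ones of the 49 genes with more than 1 E2F word, are shown because 4 of them belong to the helicase described above. E2F words are in capitals.
Mcm3: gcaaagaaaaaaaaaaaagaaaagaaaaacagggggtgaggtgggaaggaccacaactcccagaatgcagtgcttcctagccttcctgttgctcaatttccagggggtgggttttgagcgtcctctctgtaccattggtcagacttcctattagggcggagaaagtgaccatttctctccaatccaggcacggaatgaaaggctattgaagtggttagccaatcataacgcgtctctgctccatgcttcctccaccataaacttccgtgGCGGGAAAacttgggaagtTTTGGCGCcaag
Mcm5: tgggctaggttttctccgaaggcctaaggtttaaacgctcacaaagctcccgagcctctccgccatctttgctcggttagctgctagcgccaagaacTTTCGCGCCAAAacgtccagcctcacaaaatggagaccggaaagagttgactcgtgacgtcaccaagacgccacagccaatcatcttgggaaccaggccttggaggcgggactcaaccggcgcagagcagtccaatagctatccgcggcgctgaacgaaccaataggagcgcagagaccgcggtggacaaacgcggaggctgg
Mcm6: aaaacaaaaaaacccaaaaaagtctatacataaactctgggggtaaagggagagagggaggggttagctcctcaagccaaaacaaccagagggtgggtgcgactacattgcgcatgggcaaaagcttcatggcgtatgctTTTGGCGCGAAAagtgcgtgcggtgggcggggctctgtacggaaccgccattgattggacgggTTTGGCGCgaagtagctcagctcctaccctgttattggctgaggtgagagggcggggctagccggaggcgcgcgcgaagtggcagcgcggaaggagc
Mcm7: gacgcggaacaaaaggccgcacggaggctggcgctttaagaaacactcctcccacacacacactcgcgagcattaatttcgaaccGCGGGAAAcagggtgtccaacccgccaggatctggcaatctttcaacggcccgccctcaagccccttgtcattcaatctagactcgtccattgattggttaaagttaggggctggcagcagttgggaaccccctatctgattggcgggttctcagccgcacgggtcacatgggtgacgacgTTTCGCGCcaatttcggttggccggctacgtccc
Rfc3: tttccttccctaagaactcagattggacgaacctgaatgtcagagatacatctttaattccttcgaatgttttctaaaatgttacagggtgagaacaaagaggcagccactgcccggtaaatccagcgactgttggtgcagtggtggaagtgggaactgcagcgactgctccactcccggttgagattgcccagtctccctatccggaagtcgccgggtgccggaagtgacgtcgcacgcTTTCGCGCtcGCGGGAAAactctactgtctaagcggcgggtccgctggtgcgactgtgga
They lie at chr1:20820263-20820562 (minus strand, *Mcm3*), chr8:75109259-75109558 (plus strand, *Mcm5*), chr1:128359656-128359955 (minus strand, *Mcm6*), chr5:138171834-138172133 (minus strand, *Mcm7*) and chr5:151651159-151651458 (minus strand, *Rfc3*). In *Mcm5* and *Mcm6* a pair of words on opposite strands overlapped to form 1 run of capitals. *Mcm6*, with 3 words, had a value above WT, and *Mcm7*, with 2, had the lowest adjusted p among the lower genes. Over the 17 genes with a word, 9 were lower and the median log2 fold change was -0.02, and over the 24 without, 18 were lower and the median was -0.15. A match is a description of letters and does not show that a factor binds there.

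Of the 8 factors that fire origins, 0 reached an unadjusted p under 0.05, beside 7.22% lower and 17.5% higher over all tested genes. The pools overlapped for 5 of the 8. *Cdc45*, the helicase cofactor, measured 61.9 and 68.6 TPM in mutant pools and 78.7 and 78.7 TPM in WT pools (-0.27 ± 0.11, adjusted p = 0.208). *Gins3* was at 21.3 and 23.8 TPM against 25.9 and 29.4 TPM (-0.28 ± 0.14, adjusted p = 0.269). *Dbf4*, the activating subunit of the CDC7 kinase, was at 94.9 and 79.0 TPM against 100 and 102 TPM (-0.22 ± 0.12, adjusted p = 0.321), a difference that the GC and length correction moved to -0.02. These were the 3 genes without overlap, all below WT. Of all tested genes, 22.7% were below WT and 38% above it without overlap. *Gins1* was the most even of all, between 74.3 and 75.8 TPM in the 4 libraries, with an interval from -0.24 to 0.25. *Cdc7*, *Mcm10*, *Gins2* and *Gins4* had log2 fold changes between -0.05 and 0.06, and *Gins2* shares 67.3% of its exon bases with *Gse1* on the other strand. The GC and length correction moved *Mcm10* to -0.23 and *Gins2* to -0.25, with *Cdc7* at 0.013 and *Gins4* at -0.0021.

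Of the 9 polymerase and primase genes, 0 passed the threshold, and values lay on both sides of WT. At an unadjusted p under 0.05, 2 were lower and 0 higher, beside 7.22% and 17.5% of all tested genes. Polymerase alpha-primase makes the RNA-DNA primers, and its catalytic subunit *Pola1* measured 35.0 and 31.3 TPM in mutant pools and 45.1 and 58.4 TPM in WT pools (-0.62 ± 0.16, adjusted p = 0.131). The primase subunits *Prim1* (-0.17) and *Prim2* (-0.27) were also below WT in both pools, while *Pola2* was above (0.14). The GC and length correction moved *Prim2* to -0.16 and *Pola2* to 0.05. Polymerase epsilon extends the leading strand. For both of its members each mutant pool lay below each WT pool, beside 22.7% of all tested genes. *Pole2* was at 30.9 and 34.6 TPM against 41.0 and 46.2 TPM (-0.40 ± 0.13, adjusted p = 0.160), and *Pole* differed by -0.20 ± 0.12 (-0.41 after the correction). Polymerase delta copies the lagging strand. For its 3 members each mutant pool lay above each WT pool, beside 38% of all tested genes. *Pold1* was at 63.2 and 91.9 TPM against 60.0 and 54.2 TPM (0.41 ± 0.20, adjusted p = 0.271). *Pold3* was at 99.3 and 64.4 TPM against 56.2 and 59.5 TPM (0.46 ± 0.22, adjusted p = 0.263). For both genes the mutant pools differed from each other by more than the WT pools did, and the signs of *Pold1* (-0.07) and *Pold2* (0.21 to -0.11) turned under the GC and length correction. Summed, polymerase delta was at 216 and 208 TPM against 166 and 155 TPM, and polymerase epsilon at 67.9 and 70.2 TPM against 85.5 and 85.5 TPM.

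*Pcna*, the sliding clamp that tethers the polymerases, was the most abundant of the 49 genes. It measured 376 and 422 TPM in mutant pools and 448 and 478 TPM in WT pools (-0.21 ± 0.10, adjusted p = 0.260). The processed copy *Pcna-ps2*, 99.2% identical over 781 bases, was listed at 191 and 193 TPM against 290 and 289 TPM (-0.59 ± 0.08, adjusted p = 0.0644), so the division of reads between them is uncertain. With both entries summed, the clamp was at 567 and 615 TPM against 738 and 767 TPM (-0.35 ± 0.09, adjusted p = 0.125). Either way, both mutant pools were below both WT pools, and the GC and length correction moved *Pcna* to -0.12.

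The clamp loader opens the PCNA ring, and the values of its subunits lay on both sides of WT. *Rfc5* had the largest value above WT of the 49 genes, at 50.6 and 48.7 TPM against 38.9 and 32.7 TPM (0.47 ± 0.13, adjusted p = 0.139). Its near-identical copy *Gm12870*, 96.2% identical over 1020 bases, was listed at 6.14 and 5.03 TPM against 4.56 and 3.47 TPM. *Rfc4* was at 166 and 162 TPM against 192 and 194 TPM (-0.24 ± 0.09, adjusted p = 0.190). The groups did not overlap for *Rfc5* or *Rfc4*, but after the GC and length correction *Rfc5* was at 0.23, below *Pold3* (0.32), and *Rfc4* at -0.04. Without overlap, 22.7% of all tested genes were below WT and 38% above it. *Rfc3* (-0.28) and the large subunit *Rfc1* (-0.39) were below WT in both pools, *Rfc1* with a wide spread between the WT pools (80.6 and 119 TPM), and *Rfc2* overlapped between groups. The highest subunit exceeded the lowest 3.28-fold and 3.32-fold in mutant pools and 4.94-fold and 5.93-fold in WT pools. *Rfc5* shares 10.7% of its exon bases with *Wsb2* and *Rfc4* shares 12.7% with *Eif4a2*, both on the other strand, and *Wsb2* was itself at 37.3 and 33.7 TPM against 25.2 and 20.9 TPM.

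The 3 subunits of RPA, which coats single-stranded DNA at the fork, had log2 fold changes of 0.07 (*Rpa1*), -0.11 (*Rpa2*) and -0.09 (*Rpa3*). Their intervals lay within 0.5 of 0. The GC and length correction moved *Rpa2* to -0.23 and turned the signs of *Rpa1* (-0.11) and *Rpa3* (0.33). Of the enzymes that finish Okazaki fragments, *Lig1*, the ligase, overlapped between groups at 149 and 125 TPM against 150 and 128 TPM. The log2 fold change of *Lig1* was -0.02, and -0.30 after that correction. *Fen1*, the flap nuclease, measured 18.7 and 113 TPM in mutant pools and 118 and 120 TPM in WT pools (-1.34 ± 0.81, adjusted p = 0.349). Its fold change, the largest in size of the 49, rested on *Shh*-/- pool 1, the least deeply sequenced library, which lay 6.04-fold below pool 2. Without that pool it was -0.08, and without pool 2 it was -2.61 (adjusted p = 0.0746). A gap of at least 6-fold between the *Shh*-/- pools occurred in 32 of 10429 genes with a mean of at least 10 TPM. *Fen1* shares 78.8% of its exon bases with the antisense gene *Gm10143*, listed at 0.984 to 2.51 TPM, and part of the rest with *Tmem258*.

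The 3 enzymes of deoxynucleotide supply had values below WT. *Rrm2*, the cell-cycle-regulated subunit of ribonucleotide reductase, measured 211 and 201 TPM in mutant pools and 264 and 282 TPM in WT pools (-0.40 ± 0.09, adjusted p = 0.109). Its partner *Rrm1* was at 266 and 268 TPM against 284 and 299 TPM (-0.12 ± 0.09, adjusted p = 0.400). Both genes were below WT without overlap, beside 22.7% of all tested genes, and *Rrm1* over *Rrm2* was 1.26 and 1.33 against 1.08 and 1.06. *Tyms*, the thymidylate synthase, overlapped between groups (-0.20).

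The activating E2F genes had fold changes above 0, unlike most of the 49 genes. *E2f1* measured 20.3 and 18.1 TPM in mutant pools and 13.1 and 15.3 TPM in WT pools (0.41 ± 0.15, adjusted p = 0.189), with no overlap. *E2f2* was at 8.07 and 7.04 TPM against 6.08 and 6.86 TPM (0.20 ± 0.17), the lowest of the 49 genes, and *E2f3* overlapped between groups (0.02). The GC and length correction moved *E2f1* to 0.01 and turned the signs of *E2f2* (-0.21) and *E2f3* (-0.18).

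**Figure D4:**
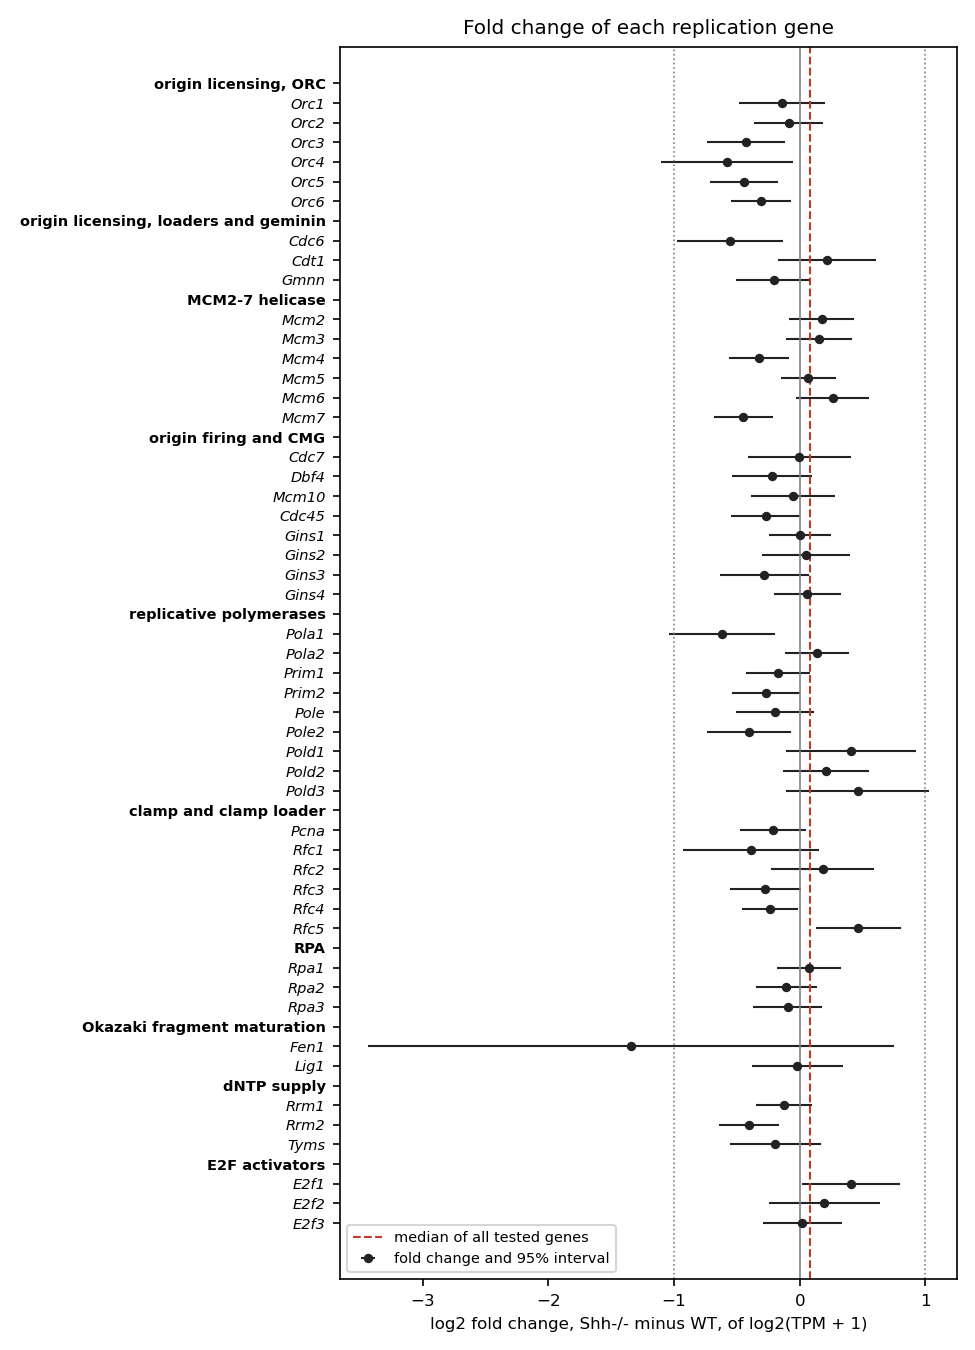
Log2 fold change (*Shh*-/- minus WT) of each replication gene with its 95% interval, ordered by role, with the median of all tested genes (0.08) as a dashed line and dotted lines at -1 and 1. The intervals of 13 genes leave out 0, 11 below it and 2 above, and that of *Fen1* runs from -3.43 to 0.75.

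GC content moved with these differences. Over the 49 genes, the correlation of the log2 fold change with the GC content of the longest annotated transcript was 0.44 (Pearson) and 0.55 (Spearman), and over all tested genes it was 0.33 and 0.44. Genes are not independent replicates, and the points share the same 4 libraries. Of the 25 genes at or below the median GC content of 47.9%, 22 were lower (median -0.24), and of the 24 above it 9 were lower (median 0.06). All tested genes below and above that GC content had medians of -0.10 and 0.22. After each library was corrected for GC content and length, 41 of the 49 genes were lower with a median of -0.18, the median of all genes was -0.01, and 0 of 49 passed the adjusted threshold (lowest 0.0639, *Mcm7*).

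**Figure D5:**
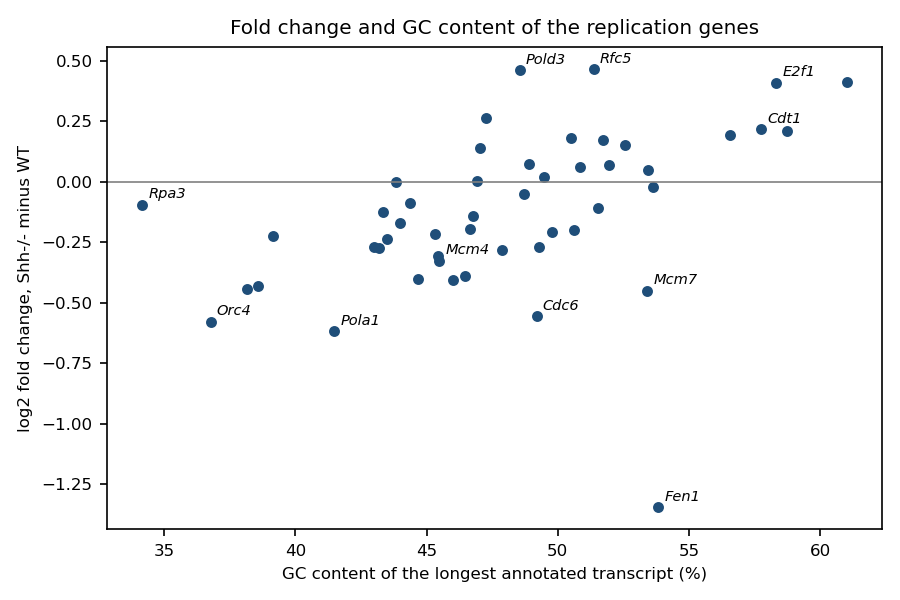
Log2 fold change (*Shh*-/- minus WT) of each of the 49 replication genes against the GC content of its longest annotated transcript in percent, with some genes named. Genes of low GC content such as *Orc4* and *Pola1* lie below 0 and those of high GC content such as *Cdt1* and *E2f1* above it, while *Mcm7* and *Fen1* lie low at a high GC content.

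The wider set of 62 replication-related genes leaned the same way, with 0 past the threshold, 39 lower and 23 higher, and a median of -0.15. At an unadjusted p under 0.05, 19 were lower and 2 higher. Of all tested genes, 41.7% were lower, and 7.22% were lower and 17.5% higher at that unadjusted p. Of the accessory factors of the fork, *Pold4*, the small polymerase delta subunit, differed most upward, at 11.4 and 12.9 TPM against 6.86 and 6.08 TPM (0.82 ± 0.16, adjusted p = 0.0957), and *Rif1*, a regulator of replication timing, most downward (-0.90 ± 0.24, adjusted p = 0.130). Among chromatin assembly factors the extremes were *Chaf1a* (0.26) and *Hells* (-0.50). All 8 genes of other nucleotide supply were lower, with a median of -0.33 and *Shmt1* lowest (-0.56). In the E2F and RB family the extremes were *E2f8* (0.45) and *Tfdp2* (-0.73). Among S-phase cyclins, CDK and checkpoint genes they were *Atrip* (0.20) and *Ccne2*, the cyclin that drives S-phase entry. *Ccne2* was at 35.3 and 35.0 TPM against 56.6 and 67.5 TPM (-0.80 ± 0.13, adjusted p = 0.0747), and its groups did not overlap.

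The libraries differed in more than replication. By an estimate from the most frequent ratio of FPKM to coverage, *Shh*-/- pool 1 held 1.37 gigabases of aligned reads and the other 3 held 2.85 to 3.13, and the RNA integrity number was 7.7 to 9.0. As a check of the labels, the Hedgehog target *Ptch1* fell by 2.0 on the log2 scale (adjusted p = 0.0319, and 0.0700 to 0.108 with a pool left out) and *Shh* itself was at 10.4 and 10.8 TPM against 23.7 and 42.1 TPM (adjusted p = 0.0895), with transcripts of the gene still present in the mutant pools. The other 2 Hedgehog targets listed were *Hhip*, which fell by 3.36 (adjusted p = 0.0323), and *Gli1* (-2.59, adjusted p = 0.0715). Summed markers of neurons were at 840 and 941 TPM in mutant pools and 229 and 173 TPM in WT pools, with 12 of 12 higher and 7 past the threshold (*Stmn2*, *Tubb3*, *Elavl3*, *Nefl*, *Ina*, *Gap43* and *Prph*). Muscle markers were at 232 and 363 TPM against 127 and 128 TPM (10 of 10 tested higher, *Myh6* and *Myh7* past the threshold), and endothelial markers at 287 and 328 TPM against 191 and 183 TPM (6 of 6 higher, *Tie1* past the threshold). With either mutant pool left out, 0 genes of the whole table passed the threshold. Erythroid markers were at 11814 and 17913 TPM against 16194 and 18340 TPM (9 of 9 lower, 0 past the threshold). Neural crest markers (7 of 8 tested higher), mesenchyme markers (5 of 8 higher, *Twist1* past the threshold), macrophage markers (4 of 4 tested higher, 8.27 to 9.88 TPM in all) and foregut epithelium markers (5 of 9 higher) showed smaller or mixed sums, and no listed marker was at 0 in every library. Beside these counts, 41.7% of all tested genes were lower, and 0.56% passed the threshold higher and 0.165% lower. The mesenchyme and foregut counts were close to the share of all tested genes. Most genes of the mesenchyme and foregut lists were higher (5 of 8 and 5 of 9). Those furthest above WT were *Twist1* (1.57) and *Prrx1* (1.13) in mesenchyme and *Krt8* (0.44) and *Epcam* (0.33) in foregut epithelium. Of the genes below WT, 0 passed the threshold. Those furthest below were *Foxf1* (-3.97), *Tbx5* (-2.23) and *Osr1* (-1.58) in mesenchyme and *Foxa2* (-2.13), *Nkx2-1* (-1.64) and *Foxa1* (-1.0) in foregut epithelium. The genes named here as furthest below had adjusted p from 0.0602 to 0.106 by limma and no overlap between groups. *Cdh1*, the remaining gene below WT in these lists, was at -0.42 ± 0.23 (adjusted p = 0.311), also without overlap. On both sides these genes were named after their values were seen. *Foxf1* was at 0.848 and 9.57 TPM against 72.3 and 64.6 TPM. The part of these cell types in the replication values was not tested.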

How the data were processed

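Bulk RNA-seq of pooled E10.5 larynx tissue (2 *Shh*-/- and 2 WT pools) was analysed from gene tables. Poly(A)-enriched, directional libraries were aligned to mm10 with HISAT2 2.1.0 and quantified with StringTie 1.3.6, as the submitters' processing notes name them. The strand option and annotation release are not given in the sources used here. The deposited tables hold coverage (mean read depth per base of a gene, not normalised), FPKM (scaled by the authors to aligned bases) and TPM (FPKM scaled by the authors to a sum of 1000000 per library), and no read counts were used. The ratio of FPKM to coverage differed between genes of 1 library, and depth was estimated from its most frequent value, shared by 47.4 to 54.1% of genes with a coverage over 50. Without counts, no counting intervals were computed.

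TPM was summed per gene ID and log2(TPM + 1) was tested with limma 3.58.1 in R 4.3.3 (lmFit, eBayes with trend, two-sided), for 16972 genes with a mean of at least 1 TPM, with Benjamini-Hochberg adjustment over all of them and a threshold of 0.05. Groups followed the sample titles. The members and lists were chosen with earlier results of these data known, and no list was given a p-value. All 49 members are named. Of the other lists, genes past the threshold are named, otherwise the largest rise and fall of each replication, mitosis or G1 list. For mesenchyme and foregut markers, genes furthest from WT on both sides and *Cdh1* were added after their values were seen. *Shh*, *Ptch1*, *Hhip* and *Gli1* served to check the labels. Length, GC content and exon overlaps came from GENCODE M21, whose coordinates matched the tables for 42 of 49 members, near-identical copies from BLAST+ 2.17.0 (at least 95% over 300 bases), and promoters from RefSeq. Scripts were tested on simulated data. Alternatives were another pseudocount, filters, normalisations, variance models, FPKM, a correction for GC content and length, an adjusted p of 0.10 and each pool left out.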

Additional observations from a re-analysis of the deposited data

How the results depend on the processing

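No replication gene passed an adjusted p of 0.05 under any of the alternatives run, and at 0.10 in place of 0.05 the count was 1 (*Mcm7*). Under single alternatives *Rrm2* (0.0988 with FPKM) and *Fen1* (0.0746 without *Shh*-/- pool 2) also had an adjusted p under 0.10. Between 30 and 41 of the 49 genes were lower, and their median log2 fold change stayed below 0, at -0.25 with median centring, -0.18 with the GC and length correction and -0.14 to -0.098 with a pool left out. Median centring moved the median of all genes from 0.08 to -0.05. Without *Fen1*, an alternative chosen after seeing the data as was summing *Pcna* and its copy, the median was -0.12. The number of all tested genes past the threshold was 123 (95 higher, 28 lower), and 69 with a pseudocount of 0.1, 0 with no filter on TPM (5011 at an unadjusted p under 0.05), 858 at an adjusted p of 0.10 and 0 to 21 with a pool left out (0 without either *Shh*-/- pool, with 2762 and 3742 at an unadjusted p under 0.05, 21 without WT pool 4 and 16 without WT pool 6). The calls were 20 higher and 1 lower without WT pool 4, 4 and 12 without WT pool 6, and 75 and 36 after the GC and length correction. The causes were not tested.

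The sign held in every alternative for 32 genes and turned in at least 1 for 17, none of them near the threshold. It turned with quantile normalisation for *Gins1* (-0.043), *Gins2* (-0.037) and *E2f3* (-0.073), with median centring for *Mcm5* (-0.059), *Gins1* (-0.12), *Gins2* (-0.080), *Gins4* (-0.069), *Rpa1* (-0.054) and *E2f3* (-0.11), and with FPKM for *Gins1* (-0.028) and *E2f3* (-0.012). The GC and length correction turned *Cdt1* (-0.16), *Mcm2* (-0.062), *Mcm3* (-0.11), *Mcm5* (-0.17), *Cdc7* (0.013), *Gins2* (-0.25), *Gins4* (-0.0021), *Pold1* (-0.069), *Pold2* (-0.11), *Rfc2* (-0.038), *Rpa1* (-0.11), *Rpa3* (0.33), *E2f2* (-0.21) and *E2f3* (-0.18). With a pool left out, the range spanned 0 for *Mcm10* (-0.18 to 0.080), *Gins2* (-0.090 to 0.19), *E2f3* (-0.058 to 0.097), *Cdc7* (-0.15 to 0.14), *Gins1* (-0.010 to 0.019), *Lig1* (-0.15 to 0.11) and *Gins4* (-0.0051 to 0.12). No paired analysis was possible because the groups share no replicate numbers.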

Other observations

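Genes that act before and after S phase were read beside the replication genes. Of 13 G1 cyclins, Myc genes and CDK inhibitors, *Cdk6*, the kinase partner of D-type cyclins, measured 4.90 and 5.48 TPM in mutant pools and 19.8 and 17.7 TPM in WT pools. It fell by 1.67 on the log2 scale (SE 0.16, adjusted p = 0.0418 by limma), and was the only gene of the list past the threshold. With any 1 of the 4 pools left out it no longer passed (-1.75 to -1.60, adjusted p = 0.0999 to 0.155), nor with no filter on TPM (adjusted p = 0.146). The list had 7 genes higher and 6 lower, with a median of 0.25, beside 41.7% lower and a median of 0.08 over all tested genes.

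Of 22 mitosis genes, 0 passed the threshold, 15 were lower and 7 higher, and the median was -0.19. Over all tested genes, 0.725% passed, 41.7% were lower and the median was 0.08. *Aurkb*, a kinase of the chromosomal passenger complex, had the largest value above WT (0.45 ± 0.13, adjusted p = 0.145), and *Bub1*, a spindle checkpoint kinase, the largest below (-0.52 ± 0.20, adjusted p = 0.195). The TTTGAA word was present in 13 of the 19 mitosis promoters with an entry (68.4%), and an E2F word in 1 (5.26%). Among tested genes with an entry these shares were 13.9% and 4.72%.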
